A study of Mus musculus with 4 samples.

Results

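Expression is described for 10 mouse genes that set the pace of entry into the cell cycle: the cyclin-dependent kinase inhibitors Cdkn1a, Cdkn1b, Cdkn2a, Cdkn2b, Cdkn2c and Cdkn2d, the D cyclins Ccnd1, Ccnd2 and Ccnd3, and Myc. They were chosen by gene symbol, and all 10 were found among the 45773 genes of the deposited tables. Their levels were measured by SMART-seq v4, an RNA-seq kit for few cells, in 4 libraries of CD8 T cells isolated from tumours, 1 library per group. The MigRI and Klf4 groups were PmelI CD8 T cells, whose transgenic receptor recognises the melanocyte antigen gp100. These cells were transduced with the retroviral vector MigRI or with Klf4, a zinc finger transcription factor, and injected intravenously on day 7 into Rag2 KO mice, which have no T or B cells of their own. The mice carried MC38-gp100 tumours, a colon carcinoma line that expresses the antigen, and GFP+ cells were taken from the tumours on day 15 (the gain experiment). The Control (WT) and Klf4 cKO groups were PD1+ CD8+ cells, taken on day 14 from MC38 tumours of mice labelled as control or as Klf4 conditional knockout (the loss experiment). The labels give neither the Cre driver nor the deleted part of Klf4, and they do not say whether animals were pooled. All tumours were started from 300000 cells, and each sample held 10000 to 20000 T cells.

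Progress from rest into division passes through the D cyclins, which bind and activate the kinases Cdk4 and Cdk6. The active kinases phosphorylate the retinoblastoma protein and so release E2F transcription factors, which switch on replication genes. INK4 inhibitors (Cdkn2a to Cdkn2d) bind Cdk4 and Cdk6 and keep the D cyclins off, while Cip/Kip inhibitors (Cdkn1a and Cdkn1b) bind complexes of cyclin and kinase, above all those with Cdk2. Myc is a transcription factor that drives growth and division in activated T cells. Klf4 is known from other cells as an activator of Cdkn1a and as a restraint on division.

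The values are TPM, shares of the transcripts of a library that correct for transcript length, so that genes can be compared within that library. With 1 library per group no difference has a replicate check and no p-value was computed, and since TPM keep no read depth the values carry no counting interval. Each difference compares log2(TPM + 1) of the libraries of a single experiment and was called at 1 log2 or more, which is 2-fold. Genes are named measured where their TPM averaged 1 or more over the 4 libraries, which left 12570. Their median difference was 0.79 log2 for Klf4 over MigRI and 0.74 log2 for the Klf4 cKO-labelled library over control, so each difference is also given relative to that median gene, which is named the relative scale. Klf4 itself was at 8.69 TPM in MigRI and 26.0 TPM in the Klf4 library, and 7.52 TPM in the control library against 9.28 TPM in the Klf4 cKO-labelled library. Its relative differences were 0.69 and -0.47 log2, and as deposited it was 0.27 log2 higher in the Klf4 cKO-labelled library, so its level does not check that label. T cell markers were present in all libraries, with 10 of 10 above 0, which does not give the share of T cells. Their summed level was 24107 TPM in MigRI and 5748 TPM in the Klf4 library, and 7753 TPM in the control library against 17810 TPM in the Klf4 cKO-labelled library. With Klf4, 10 of 10 were called lower on the relative scale, against 23.6% of measured genes, and 9 as deposited, against 10.3%. The relative differences of Cd3d and Cd3g were -5.22 and -5.02 log2. For the Klf4 cKO-labelled library, 5 were called higher and 1 lower on the relative scale, against 12.4% and 16.2% of measured genes. In these bulk samples, fewer cells of a type and less RNA per cell cannot be told apart.

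All 10 genes passed the filter on low values. Cdkn2b was below 1 TPM in 3 libraries and passed only through the Klf4 cKO-labelled library, in which it was highest. As deposited, 5 of 10 were called higher with Klf4 than with MigRI, against 43.7% of all measured genes, and 0 were called lower, against 10.3%. Relative to the median gene, 2 of 10 were called higher, against 21.4% of measured genes, and 1 of 10 was called lower, against 23.6%. For the Klf4 cKO-labelled library over control, 5 of 10 were called higher as deposited, against 38.4% of measured genes, and 0 lower, against 6.92%. Relative to the median gene, 0 of 10 were called higher, against 12.4% of measured genes, and 2 of 10 lower, against 16.2%. The counts as deposited lie near these background shares. The median over the 10 genes was 0.92 log2 as deposited and 0.13 log2 on the relative scale for Klf4 over MigRI, and 1.03 and 0.29 log2 for the Klf4 cKO-labelled library over control. Of all calls among measured genes, 81.0% were in the higher direction as deposited and 47.5% on the relative scale for Klf4 over MigRI, and 84.7% and 43.4% for the other comparison.

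**Figure D1:**
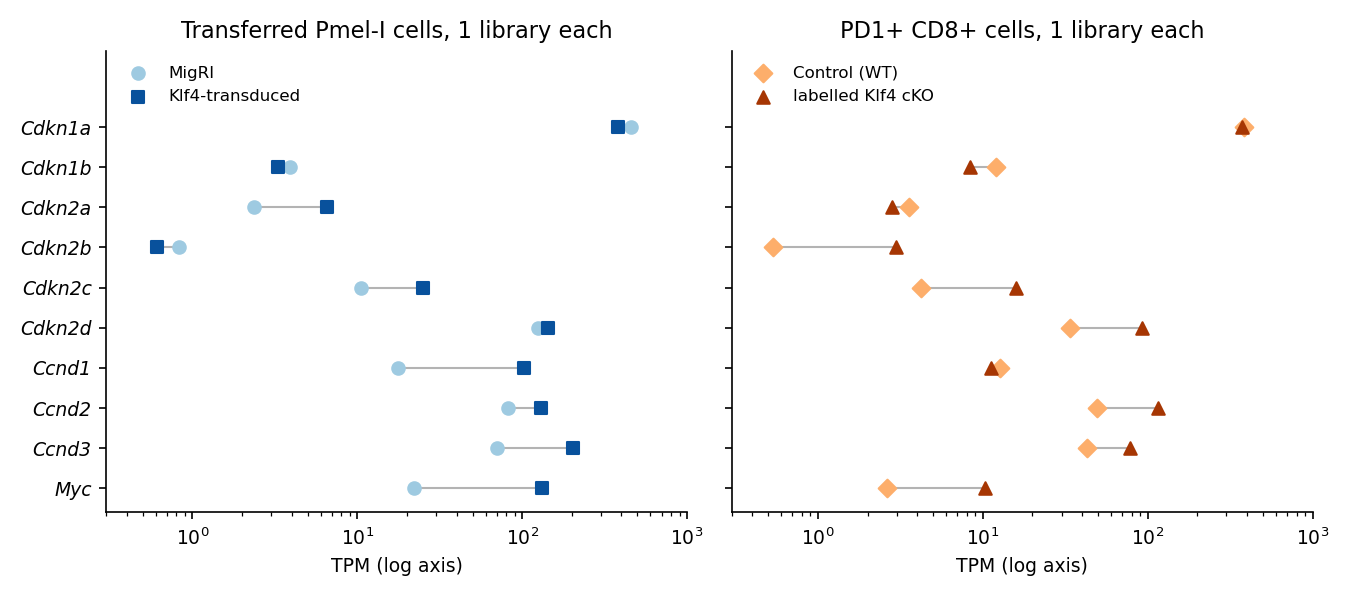
TPM of each gene on a log axis, with MigRI and Klf4-transduced cells at left, control and the Klf4 cKO-labelled library at right, 1 point per library and a line joining the 2 libraries of an experiment. Cdkn1a lies between 373 and 459 TPM in every library, while Myc and Ccnd1 are far apart at left.

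Promoter sequences are shown for Cdkn1a, since Klf4 is known to act on that gene, and for Cdkn2b, Cdkn2c and Cdkn2d, the INK4 genes with a call in the higher direction in the Klf4 cKO-labelled library as deposited. Windows of 250 bases before to 50 bases after a start site were taken from RefSeq on GRCm38.p6, the assembly behind mm10, and 7 of the 10 genes matched by symbol, with 11 windows. Capitals mark the CACCC box, the letters CACCC or, on the other strand, GGGTG, and the GC box, the letters GGGCGG or CCGCCC. These are short core letters of the kind that Kruppel-like and Sp factors bind. Matches that overlap run together in the capitals but were counted one by one.

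Cdkn1a, chr17:29093519-29093818, plus strand: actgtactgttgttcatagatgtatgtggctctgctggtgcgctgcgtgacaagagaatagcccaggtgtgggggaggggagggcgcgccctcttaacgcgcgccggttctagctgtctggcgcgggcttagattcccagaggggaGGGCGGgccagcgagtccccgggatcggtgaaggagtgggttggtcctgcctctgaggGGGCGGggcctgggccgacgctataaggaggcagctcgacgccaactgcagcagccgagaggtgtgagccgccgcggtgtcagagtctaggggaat

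Cdkn1a, chr17:29090729-29091028, plus strand: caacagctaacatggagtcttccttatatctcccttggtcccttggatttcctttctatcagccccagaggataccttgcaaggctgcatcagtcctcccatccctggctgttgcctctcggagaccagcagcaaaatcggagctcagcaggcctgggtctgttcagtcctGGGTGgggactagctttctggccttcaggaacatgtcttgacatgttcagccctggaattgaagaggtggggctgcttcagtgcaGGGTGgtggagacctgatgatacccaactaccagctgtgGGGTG

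Cdkn2b, chr4:89310983-89311282, minus strand: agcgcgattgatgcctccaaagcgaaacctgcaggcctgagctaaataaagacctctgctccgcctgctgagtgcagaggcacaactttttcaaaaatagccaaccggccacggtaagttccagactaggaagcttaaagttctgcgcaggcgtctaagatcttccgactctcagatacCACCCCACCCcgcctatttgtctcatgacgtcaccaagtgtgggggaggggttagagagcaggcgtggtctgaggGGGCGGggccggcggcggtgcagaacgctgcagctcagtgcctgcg

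Cdkn2c, chr4:109665323-109665622, minus strand: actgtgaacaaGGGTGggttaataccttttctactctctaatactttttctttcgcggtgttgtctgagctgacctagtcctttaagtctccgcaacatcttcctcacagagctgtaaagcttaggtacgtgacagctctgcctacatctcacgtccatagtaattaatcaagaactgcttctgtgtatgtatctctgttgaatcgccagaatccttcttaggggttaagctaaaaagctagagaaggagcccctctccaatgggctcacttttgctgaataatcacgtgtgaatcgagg

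Cdkn2c, chr4:109666707-109667006, minus strand: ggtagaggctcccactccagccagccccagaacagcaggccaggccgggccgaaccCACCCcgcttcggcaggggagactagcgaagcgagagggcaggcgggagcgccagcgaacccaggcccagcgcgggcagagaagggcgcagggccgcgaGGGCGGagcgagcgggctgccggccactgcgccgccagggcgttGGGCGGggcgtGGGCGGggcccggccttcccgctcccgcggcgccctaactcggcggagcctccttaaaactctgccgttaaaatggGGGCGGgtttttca

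Cdkn2d, chr9:21291160-21291459, minus strand: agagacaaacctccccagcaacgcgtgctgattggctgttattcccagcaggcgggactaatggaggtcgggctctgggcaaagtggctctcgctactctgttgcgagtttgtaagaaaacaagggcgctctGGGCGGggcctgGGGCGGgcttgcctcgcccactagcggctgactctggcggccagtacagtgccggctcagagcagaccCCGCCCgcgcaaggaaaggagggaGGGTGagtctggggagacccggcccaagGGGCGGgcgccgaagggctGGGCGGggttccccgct

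At least 1 CACCC box was present in 57.7% of 32544 distinct promoter windows, and at least 1 GC box in 35.9%. The first Cdkn1a window, around the start site at 29093769, held 0 CACCC boxes and 2 GC boxes, and the second, around the start site at 29090979, held 3 CACCC boxes and 0 GC boxes. Cdkn2b held 2 CACCC boxes and 1 GC box. The first Cdkn2c window held 1 CACCC box and 0 GC boxes, the second 1 and 4, and Cdkn2d 1 and 5. Of the genes not printed, Cdkn1b held 0 CACCC boxes and 1 GC box, the 2 Cdkn2a windows 1 and 1 and then 1 and 3, and each of the 2 Ccnd3 windows held 3 and 2. The letters CACGTG, the E box that Myc binds, occurred in 1 of the 11 windows, the first of Cdkn2c, and in 7.17% of all windows. A match is a description of the letters and not a bound site.

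Cdkn1a, which encodes p21, was the highest of the 6 inhibitors in all 4 libraries. It lies on mm10 chr17:29090976-29100727, on the plus strand. There AC167363.2, which had no TPM under that name, overlaps it on the opposite strand over 1046 bases, and the kit does not mark strand. The level of Cdkn1a was 459 TPM in MigRI and 384 TPM in the Klf4 library, and 384 TPM in the control library against 373 TPM in the Klf4 cKO-labelled library. The 4 values thus sat within a narrow band, and in each library between 96.0% and 96.7% of measured genes were lower. With Klf4 the difference was -0.26 log2 as deposited and -1.05 log2 on the relative scale, and in the other comparison it was -0.04 and -0.78 log2. The relative call with Klf4 sits close to the threshold of 1 log2. Cdkn1a was lower with Klf4 under 6 of 7 scalings, and was 1.78 log2 higher when set against the T cell receptor constant genes Trac, Trbc1 and Trbc2. Those 3 genes differed by -2.03 log2 on average between the Klf4 and MigRI libraries and by 1.82 log2 between the Klf4 cKO-labelled and control libraries, so that against them the median measured gene stood at 2.83 and -1.08 log2. In the Klf4 cKO-labelled library the value was below 0 under 7 of 7 scalings, from -1.86 to -0.07 log2. The deposited difference of -0.04 log2 was itself near 0 and each scaling moved it lower. The 7 are therefore not separate checks of a decrease.

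Cdkn1b, which encodes p27, the inhibitor of resting T cells, lies on chr6:134920401-134925513, on the plus strand. It was at 3.91 TPM in the MigRI library against 3.29 TPM with Klf4, and 12.0 TPM in the control library against 8.35 TPM in the Klf4 cKO-labelled library. Of measured genes, 43.1% were lower in MigRI, 21.6% with Klf4, 73.5% in control and 54.5% in the Klf4 cKO-labelled library. The difference was -0.19 log2 with Klf4 as deposited and -0.99 log2 on the relative scale. For the Klf4 cKO-labelled library it was -0.48 log2 as deposited and -1.21 log2 on the relative scale, a call in the lower direction that 5 of 7 scalings gave. Cdkn1a exceeded Cdkn1b by a ratio of 117 in MigRI and 116 with Klf4, and by 32.0 in control and 44.7 in the Klf4 cKO-labelled library. A ratio of 2 genes in 1 library is not changed by a single factor per library, but quantile normalization changes it, to 67.6 in MigRI and 169 with Klf4, and to 22.7 and 53.5 in the loss experiment. A related gene, Cdkn1c, which encodes p57, stayed below 0.5 TPM in all 4 libraries and was listed at 0 in control.

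Cdkn2d, which encodes p19INK4d, held most of the INK4 transcripts, from 80.3% of their summed TPM in control to 90.1% in MigRI. It lies on chr9:21288410-21291407, on the minus strand. It was at 125 TPM in the MigRI library against 143 TPM with Klf4, a difference of 0.20 log2 as deposited and -0.60 log2 on the relative scale, so its direction turned with the scaling. In control it was at 34.0 TPM and in the Klf4 cKO-labelled library at 91.8 TPM, the lowest of the 4 values and the third highest. That difference was 1.41 log2 as deposited and 0.67 log2 on the relative scale, and it was -0.41 log2 against the receptor constant genes.

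Cdkn2c, which encodes p18INK4c, was called higher as deposited in both experiments. It lies on chr4:109660876-109667189, on the minus strand. Its level was 10.5 TPM in the MigRI library against 25.0 TPM with Klf4, a difference of 1.18 log2 as deposited and 0.39 log2 on the relative scale. It was at 4.22 TPM in the control library against 15.9 TPM in the Klf4 cKO-labelled library, a difference of 1.69 log2 as deposited and 0.95 log2 on the relative scale, just below the threshold. With Klf4 the value stayed above 0 under 7 of 7 scalings, the lowest being 0.11 log2, while in the other comparison it was -0.13 log2 against the receptor constant genes. As a share of INK4 transcripts, Cdkn2c was 7.57% in MigRI, 14.3% with Klf4, 9.98% in control and 14.0% in the Klf4 cKO-labelled library.

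Cdkn2a and Cdkn2b are neighbours on the minus strand of chromosome 4, at chr4:89274471-89294653 and chr4:89306299-89311039, and both are known to accumulate in senescent cells. Cdkn2a encodes p16INK4a and, from another first exon and reading frame, p19ARF, and the gene-level TPM joins both transcripts. It was at 2.37 TPM in the MigRI library against 6.55 TPM with Klf4, and 3.57 TPM in the control library against 2.81 TPM in the Klf4 cKO-labelled library. The difference with Klf4 was 1.16 log2 as deposited and 0.37 log2 on the relative scale. In the other comparison it was -0.26 log2 as deposited and -1.0 log2 on the relative scale, which lies at the threshold. Cdkn2b, which encodes p15INK4b, was at 0.832 TPM in the MigRI library against 0.609 TPM with Klf4, and 0.536 TPM in the control library against 2.96 TPM in the Klf4 cKO-labelled library. That last difference was 1.37 log2 as deposited, 0.63 log2 relative to the median gene and -0.45 log2 against the receptor constant genes. At these low levels the precision of both genes is unknown.

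**Figure D2:**
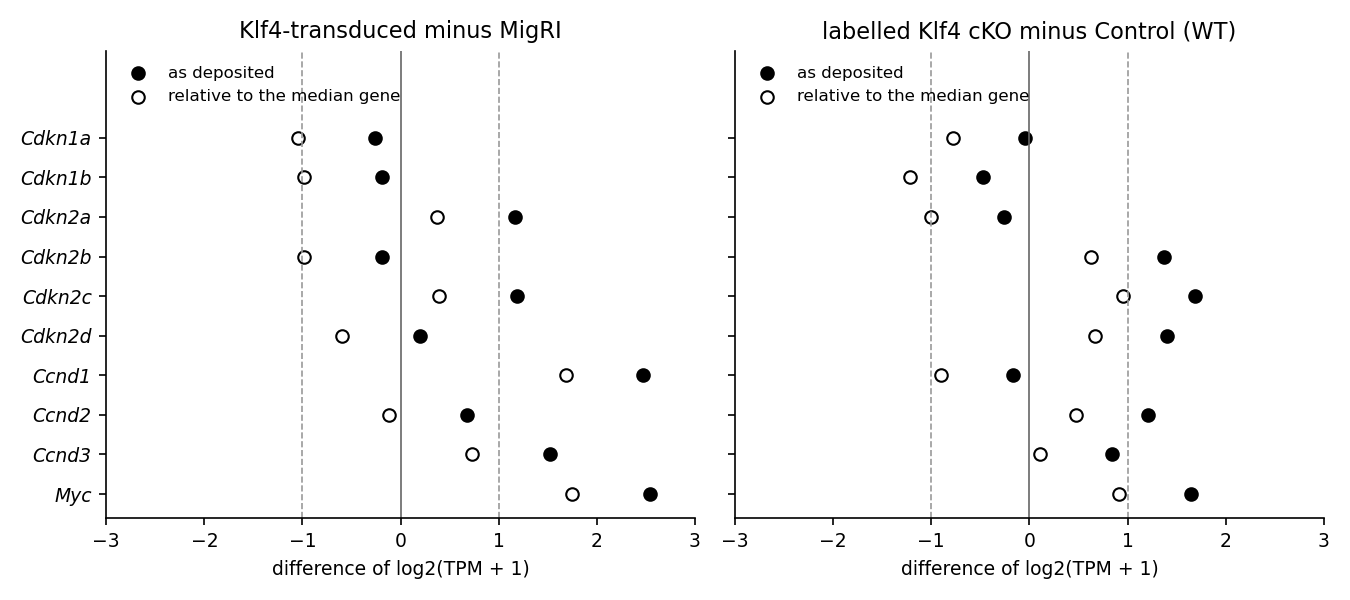
Difference of log2(TPM + 1) for each gene as deposited (filled points) and relative to the median measured gene (open points), with dashed lines at -1 and 1 log2. At left the open points of Myc and Ccnd1 lie above 1, and that of Cdkn1a lies just below -1. At right no open point lies above 1, that of Cdkn1b lies below -1 and that of Cdkn2a lies at -1.

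With Klf4, 2 of the 3 D cyclins, Ccnd1 and Ccnd3, were called higher as deposited, against 43.7% of measured genes. On the relative scale 1 was, Ccnd1, against 21.4%. In the Klf4 cKO-labelled library 1 of 3, Ccnd2, was called higher as deposited, against 38.4% of measured genes, and 0 on the relative scale, against 12.4%. A difference between the experiments was not tested. Ccnd2 and Ccnd3 are the D cyclins of lymphocytes, while Ccnd1 is known mainly from fibroblasts and epithelial cells. Ccnd1, on chr7:144929931-144939925 (minus strand), stood at 17.6 TPM in the MigRI library against 102 TPM with Klf4. In control it was at 12.8 TPM and in the Klf4 cKO-labelled library at 11.3 TPM. The Klf4 library thus stood far above the other 3. The difference with Klf4 was 2.47 log2 as deposited and 1.68 log2 on the relative scale, it was called under 7 of 7 scalings, and 91.0% of measured genes had a lower difference. In the other comparison the difference was -0.17 log2 as deposited and -0.91 log2 on the relative scale. Ccnd1 made up 10.4% of the summed D cyclin TPM in MigRI, 23.4% with Klf4, 12.2% in control and 5.50% in the Klf4 cKO-labelled library.

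Markers of other cell types were counted in both experiments. On the relative scale 21.4% of measured genes were called higher and 23.6% lower with Klf4, and 12.4% and 16.2% in the Klf4 cKO-labelled library. Of 8 measured fibroblast and endothelium markers, 7 were at least 2-fold higher with Klf4 relative to the median gene and 1 was lower, and the sum of all 10 was 140 TPM in the MigRI library against 1328 TPM with Klf4. In the Klf4 cKO-labelled library, 2 of the 8 measured were higher and 0 lower on the relative scale. The sum was 32.4 TPM in control and 252 TPM in the Klf4 cKO-labelled library, with 2 of the 10 markers listed at 0 in control. Those were Cdh5 and Kdr. Of 14 measured macrophage markers, 12 were higher with Klf4 and 0 lower on the relative scale, with sums of 2498 and 9609 TPM. In the other experiment 8 were higher and 0 lower, with sums of 754 and 2753 TPM. Tumour epithelium markers summed to 2.03 TPM in the MigRI library against 4.84 TPM with Klf4, and 3.44 TPM in the control library against 7.86 TPM in the Klf4 cKO-labelled library, with Krt19 and Krt20 at 0 in all 4. Neutrophil and mast cell markers summed to 30.0, 159, 29.6 and 66.1 TPM in the same order. Of the 7 measured, 5 were higher and 0 lower with Klf4, and 4 higher and 2 lower in the Klf4 cKO-labelled library, on the relative scale. In the loss experiment the mast cell genes Tpsb2, Cma1, Cpa3 and Mcpt4 had 0 TPM in the control library but 21.1, 20.9, 10.2 and 9.78 TPM in the Klf4 cKO-labelled one. The neutrophil genes S100a8 and S100a9 went the other way, with relative differences of -3.21 and -3.52 log2. Markers of CD4 T, B and NK cells summed to 7.84, 24.9, 6.44 and 7.33 TPM. The part of other cells in the differences of Ccnd1 and the other 9 genes was not tested. Ccnd1 also overlaps LTO1 on the opposite strand over 1771 bases, the kit does not mark strand, and LTO1 was at 3.55 TPM in the MigRI library against 22.7 TPM with Klf4.

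Ccnd2, on chr6:127125162-127152193 (minus strand), stood at 81.5 TPM in the MigRI library against 131 TPM with Klf4, and 49.3 TPM in the control library against 115 TPM in the Klf4 cKO-labelled library. With Klf4 its difference was 0.67 log2 as deposited and -0.12 log2 on the relative scale, so the direction turned. In the Klf4 cKO-labelled library it was 1.21 log2 higher as deposited, 0.47 log2 higher relative to the median gene and -0.61 log2 against the receptor constant genes. Its share of D cyclin TPM was 48.0% in MigRI, 29.9% with Klf4, 46.9% in control and 56.4% in the Klf4 cKO-labelled library. It shares 2805 bases with the gene 9330179D12Rik, which stayed at or below 1.09 TPM, and 994 bases with Gm43126, which had no TPM under that name.

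Ccnd3, on chr17:47505051-47599691 on the plus strand, stood at 70.5 TPM in the MigRI library against 204 TPM with Klf4, and 43.0 TPM in the control library against 78.0 TPM in the Klf4 cKO-labelled library. The Klf4 library again held the highest of the 4 values. The difference with Klf4 was 1.52 log2 as deposited and 0.73 log2 on the relative scale, and it stayed above 0 under 7 of 7 scalings. In the Klf4 cKO-labelled library it was 0.84 log2 as deposited, 0.11 log2 relative to the median gene and -0.97 log2 against the receptor constant genes, and it was above 0 under 4 of 7 scalings. The share of Ccnd3 in D cyclin TPM moved little, between 38.1% and 46.7% over the 4 libraries. Its last 361 bases overlap Bysl on the opposite strand, which was at 21.5, 58.5, 29.8 and 9.46 TPM in MigRI, Klf4, control and the Klf4 cKO-labelled library.

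**Figure D3:**
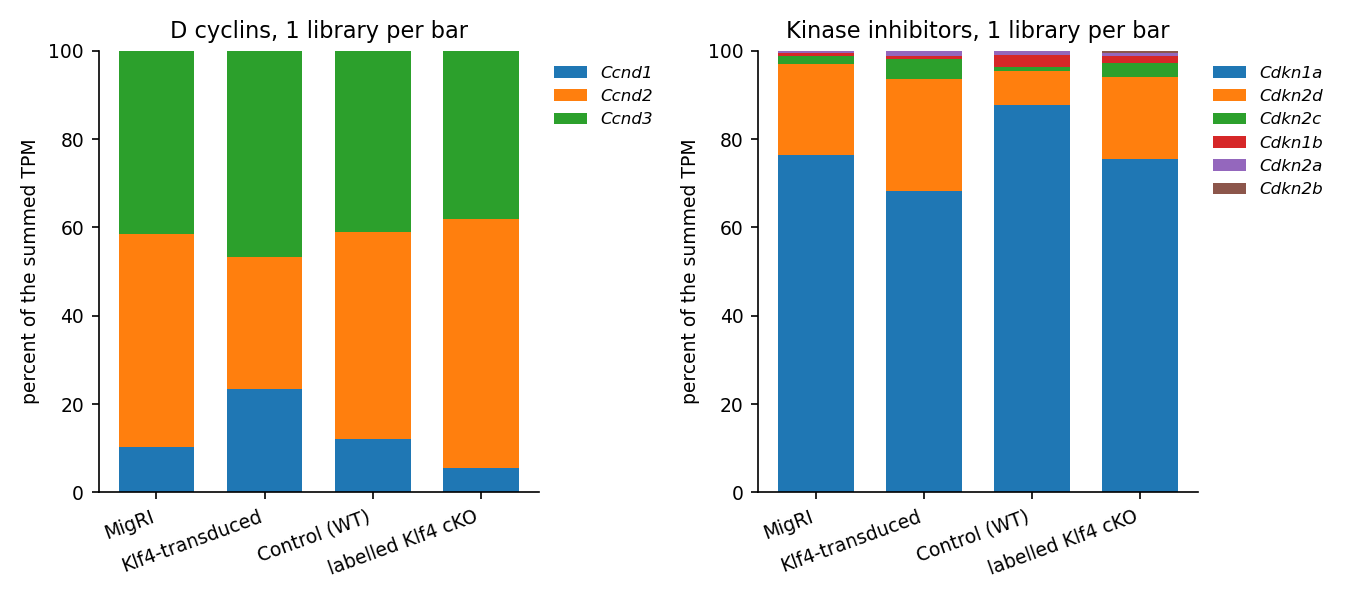
Percent of the summed TPM of the 3 D cyclins (left) and of the 6 kinase inhibitors (right) held by each gene, 1 bar per library. Ccnd1 takes 23.4% of D cyclin TPM in the Klf4-transduced library and 5.50% in the Klf4 cKO-labelled library, and Cdkn1a takes 68.3% to 87.6% of inhibitor TPM.

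Within each library the inhibitors outweighed the D cyclins in summed TPM, least so with Klf4. The sum of the 6 inhibitors was 601 TPM in the MigRI library against 562 TPM with Klf4, and 438 TPM in the control library against 495 TPM in the Klf4 cKO-labelled library. The sum of the D cyclins was 170 TPM, 437 TPM, 105 TPM and 205 TPM in the same order. Inhibitor transcripts per D cyclin transcript thus went from 3.54 in MigRI to 1.29 with Klf4, and from 4.17 in control to 2.42 in the Klf4 cKO-labelled library. Cdkn1a alone gave 2.70 and 0.878 in the gain experiment and 3.65 and 1.82 in the loss experiment. A single factor per library leaves these ratios as they are, and they do not show which of the genes changed. After quantile normalization, inhibitors per D cyclin were 2.84 in MigRI and 1.43 with Klf4, and 3.18 in control and 2.80 in the Klf4 cKO-labelled library. Cdkn1a per D cyclin was then 2.04 and 1.04, and 2.66 and 2.20, so the direction held and the gap in the loss experiment was smaller.

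Myc, on chr15:61985391-61990374 on the plus strand, had the largest difference of the 10 genes with Klf4. It was at 21.9 TPM in the MigRI library against 132 TPM with Klf4, and 2.62 TPM in the control library against 10.3 TPM in the Klf4 cKO-labelled library. The ratio of TPM was 6.04 with Klf4 over MigRI and 3.95 for the Klf4 cKO-labelled library over control. With Klf4 the difference was 2.54 log2 as deposited and 1.75 log2 on the relative scale, called under 7 of 7 scalings, and 92.0% of measured genes had a lower difference. For the Klf4 cKO-labelled library it was 1.65 log2 as deposited and 0.91 log2 on the relative scale, with 84.9% of measured genes lower in difference, and -0.17 log2 against the receptor constant genes. Both transferred libraries were listed above both endogenous ones.

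**Figure D4:**
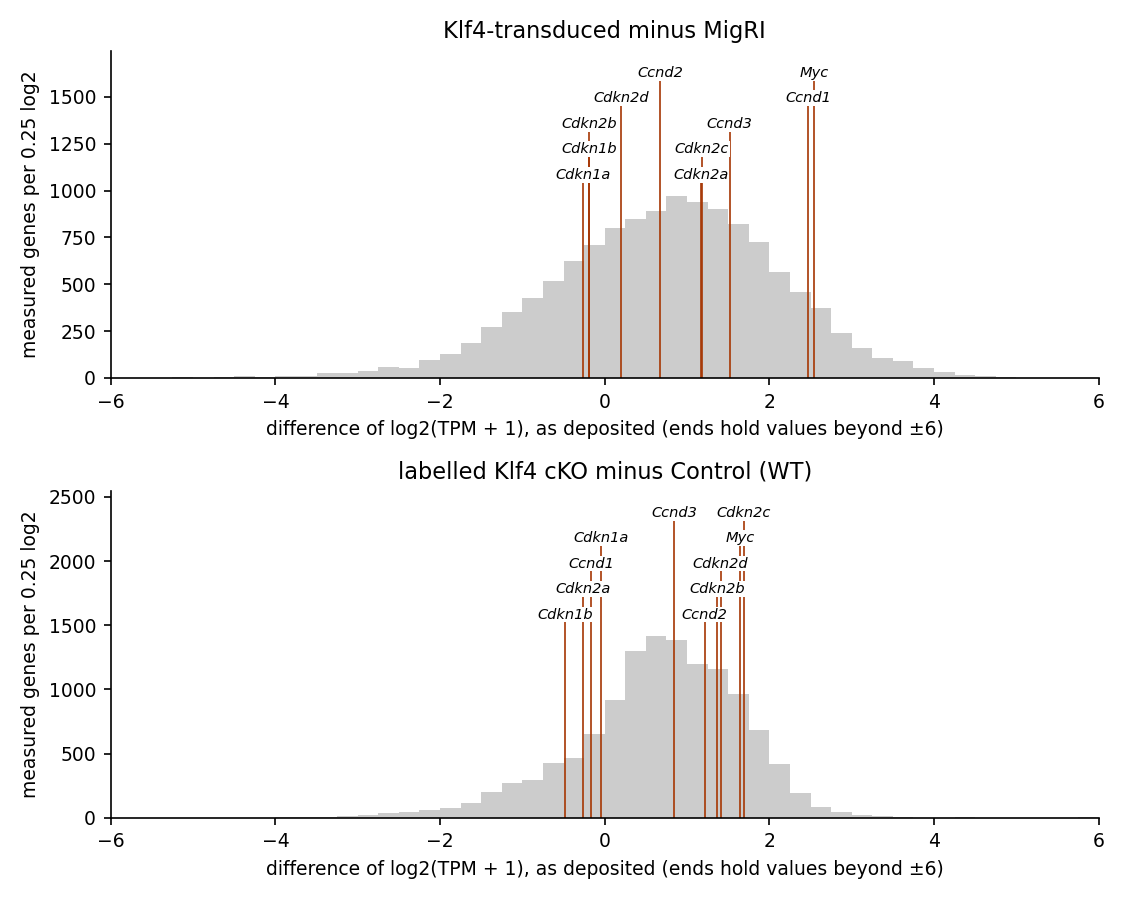
Histogram of the deposited difference of log2(TPM + 1) over the 12570 measured genes for each comparison, with a line at each of the 10 genes. At top Myc and Ccnd1 lie in the upper tail at 2.54 and 2.47 log2, and at bottom Cdkn2c and Myc are the highest of the 10 at 1.69 and 1.65 log2.

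Max, the partner that Myc needs to bind DNA, stayed low: it was at 8.61 TPM in the MigRI library against 6.36 TPM with Klf4, and 5.09 TPM in the control library against 5.96 TPM in the Klf4 cKO-labelled library. Myc transcripts per Max transcript were 2.55 in MigRI and 20.8 with Klf4, and 0.516 in control and 1.74 in the Klf4 cKO-labelled library. After quantile normalization this ratio was 2.30 in MigRI and 25.2 with Klf4, and 0.498 in control and 1.72 in the Klf4 cKO-labelled library. Mxd1, which competes with Myc for Max, was at 5.05 TPM in the MigRI library against 25.9 TPM with Klf4, and at 4.99 TPM in the control library against 13.1 TPM in the Klf4 cKO-labelled library, relative differences of 1.36 and 0.50 log2. Mxd3, on the same list, went the other way, with relative differences of -0.64 and -1.34 log2. It was at 38.2 TPM in MigRI, 42.5 TPM with Klf4, 36.1 TPM in control and 23.5 TPM in the Klf4 cKO-labelled library. Of the 7 measured partners and antagonists, 2 were higher and 1 lower with Klf4 on the relative scale, and 0 were higher and 1 lower in the Klf4 cKO-labelled library, with medians of 0.20 and 0.41 log2. As deposited, 3 were higher and 0 lower, and 4 higher and 0 lower. Of 21 genes of ribosome and nucleotide synthesis that Myc is known to activate, 2 were higher and 2 lower with Klf4 on the relative scale, with a median of -0.17 log2. As deposited, 6 were higher and 1 lower. In the Klf4 cKO-labelled library, 6 were higher and 2 lower on the relative scale, with a median of 0.70 log2, and 15 were higher and 0 lower as deposited. Odc1, the first enzyme of polyamine synthesis, was at 61.7 TPM in the MigRI library against 95.8 TPM with Klf4, and at 11.8 TPM in the control library against 61.7 TPM in the Klf4 cKO-labelled library, relative differences of -0.17 and 1.55 log2. Nme1 was at 1930, 706, 731 and 544 TPM in the same order, with relative differences of -2.24 and -1.16 log2. The medians of all measured genes on the relative scale are 0 by construction. On that scale 21.4% of measured genes were called higher and 23.6% lower with Klf4, and 12.4% and 16.2% in the Klf4 cKO-labelled library. As deposited the shares were 43.7% and 10.3%, and 38.4% and 6.92%.

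The kinases that the D cyclins activate differed from each other. Cdk4 was at 213 TPM in the MigRI library against 565 TPM with Klf4, a relative difference of 0.61 log2, and at 32.2 TPM in the control library against 127 TPM in the Klf4 cKO-labelled library, a relative difference of 1.21 log2. Cdk6 was at 8.05, 7.34, 9.33 and 14.1 TPM in the same order, with relative differences of -0.91 and -0.19 log2. As deposited the differences of Cdk4 were 1.40 and 1.95 log2. Cdk4 transcripts exceeded those of Cdk6 by a ratio of 26.5 in MigRI and 77.0 with Klf4, and of 3.45 in control and 9.01 in the Klf4 cKO-labelled library. Transcripts of the 2 kinases per INK4 transcript were 1.60 in MigRI, 3.27 with Klf4, 0.980 in control and 1.24 in the Klf4 cKO-labelled library. After quantile normalization, Cdk4 per Cdk6 was 17.2 in MigRI and 116 with Klf4, and 3.42 in control and 9.10 in the Klf4 cKO-labelled library. The 2 kinases per INK4 transcript were then 1.44, 4.14, 0.994 and 1.25 in the same order.

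Downstream genes were counted over whole lists, relative to the median gene. On that scale 21.4% of measured genes were called higher and 23.6% lower with Klf4, and 12.4% and 16.2% in the Klf4 cKO-labelled library. As deposited these shares were 43.7% and 10.3%, and 38.4% and 6.92%. Of the 3 retinoblastoma family genes, 0 were higher and 1 lower with Klf4, and 0 were called in the Klf4 cKO-labelled library, with medians of -0.01 and 0.39 log2. The gene called lower was Rbl2, at 2.43 and 1.78 TPM and at 3.40 and 5.37 TPM. As deposited, 1 was higher and 0 lower with Klf4, and 2 higher and 0 lower in the other comparison. Of 10 E2F and DP genes, 3 were higher and 1 lower with Klf4, and 0 were called in the other comparison, with medians of -0.10 and 0.12 log2. As deposited, 4 were higher and 0 lower in each comparison. E2f1, which activates replication genes, was at 8.14 TPM in the MigRI library against 40.6 TPM with Klf4, and at 2.96 TPM in the control library against 8.22 TPM in the Klf4 cKO-labelled library, relative differences of 1.39 and 0.48 log2. Of 5 genes of cyclin E, cyclin A and Cdk2, 0 were higher and 1 lower with Klf4, and 0 were called in the Klf4 cKO-labelled library, with medians of 0.19 and 0.20 log2. The gene called lower was Ccne2, at 17.3 and 12.6 TPM and at 2.46 and 4.91 TPM. As deposited, 2 were higher and 0 lower in each comparison. Of 20 replication and division genes, 1 was higher and 4 lower with Klf4, with a median of 0.46 log2, and 5 were higher and 0 lower in the Klf4 cKO-labelled library, with a median of 0.54 log2. As deposited, 11 were higher and 1 lower with Klf4, and 13 higher and 0 lower in the other comparison, so the balance of calls with Klf4 turned with the scale. Over all measured genes it turned as well, from 81.0% of calls in the higher direction as deposited to 47.5% on the relative scale. Pcna, the sliding clamp of DNA replication, was at 400 TPM in the MigRI library against 259 TPM with Klf4, and at 66.4 TPM in the control library against 262 TPM in the Klf4 cKO-labelled library, relative differences of -1.42 and 1.23 log2. With Klf4 it thus went against the median of its list. Ccnb1 was at 33.5, 95.6, 4.28 and 20.4 TPM in the same order, with relative differences of 0.69 and 1.28 log2.

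Regulators of the inhibitors were counted in the same way. The shares of measured genes called higher and lower were again 21.4% and 23.6% with Klf4, and 12.4% and 16.2% in the other comparison. As deposited they were 43.7% and 10.3%, and 38.4% and 6.92%. The counts of the p53 list with Klf4 lie near these shares. Of 20 measured genes of p53 and its targets, the class to which Cdkn1a belongs, 4 were higher and 5 lower with Klf4, and 4 were higher and 2 lower in the Klf4 cKO-labelled library, with medians of 0.07 and 0.04 log2. As deposited, 9 were higher and 1 lower with Klf4, and 7 higher and 0 lower in the other comparison. Gadd45a, a p53 target of the damage response, was at 20.6 TPM in the MigRI library against 134 TPM with Klf4, and at 5.87 TPM in the control library against 29.6 TPM in the Klf4 cKO-labelled library, relative differences of 1.85 and 1.42 log2. Phlda3, which restrains Akt, was at 16.0 and 123 TPM and at 2.52 and 10.7 TPM, relative differences of 2.07 and 1.0 log2. Other genes of the list went lower. Rrm2b was at 2.64 and 1.35 TPM and at 5.52 and 2.98 TPM, relative differences of -1.43 and -1.45 log2. Bbc3 was at 7.22 and 24.4 TPM and at 8.24 and 3.71 TPM, relative differences of 0.83 and -1.71 log2, so only the second was lower. On that scale the Cdkn1a values were -1.05 and -0.78 log2. Trp53 itself was at 48.2 TPM in the MigRI library against 156 TPM with Klf4, and at 11.7 TPM in the control library against 63.6 TPM in the Klf4 cKO-labelled library, relative differences of 0.88 and 1.61 log2. Of 11 measured genes of the turnover of p27 and D cyclins, 4 were higher and 4 lower with Klf4, and 0 were higher and 1 lower in the other comparison, with medians of -0.39 and -0.42 log2. As deposited, 4 were higher and 1 lower, and 1 higher and 1 lower. Of 12 FoxO and quiescence genes, 4 were higher and 1 lower with Klf4, and 0 were higher and 2 lower in the Klf4 cKO-labelled library, with medians of 0.64 and -0.10 log2. As deposited, 7 were higher and 0 lower, and 4 higher and 2 lower. Klf2, a quiescence factor of T cells, was at 20.2 and 274 TPM and at 18.7 and 33.6 TPM, relative differences of 2.91 and 0.08 log2. Of 8 measured genes of the TGF-beta pathway, which induces Cdkn2b, 3 were higher and 0 lower with Klf4, and 0 were higher and 1 lower in the other comparison, with medians of -0.16 and 0.06 log2. As deposited, 3 were higher and 0 lower, and 1 higher and 0 lower. Of 10 genes of Polycomb and its modifiers, a complex known to silence the Cdkn2a locus, 4 were higher and 1 lower with Klf4, and 1 was higher and 1 lower in the Klf4 cKO-labelled library, with medians of -0.17 and -0.18 log2. As deposited, 4 were higher and 0 lower in each comparison. The gene called lower with Klf4 was Ezh2, the methyltransferase of Polycomb, at -1.51 log2, and that called lower in the Klf4 cKO-labelled library was Kdm6b, a demethylase that opposes Polycomb silencing, at -1.55 log2. Cbx7, a Polycomb subunit, was at 4.16 TPM in the MigRI library against 26.3 TPM with Klf4, and at 3.71 TPM in the control library against 3.39 TPM in the Klf4 cKO-labelled library, relative differences of 1.61 and -0.84 log2.

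Genes with the nearest pair of relative differences were also looked up, over the 98 genes of these lists with a mean of at least 5 TPM. That limit leaves out low genes, some of which lay nearer to Ccnd2, Cdkn1b and Cdkn1a. Among those nearer to Cdkn1a was Mycn, listed at 0 TPM in every library. The distance is the straight line in the plane of the 2 comparisons, and Cdkn2a and Cdkn2b were below the limit. Rbl1, a retinoblastoma relative, lay nearest to Cdkn2c, at a distance of 0.03 log2. Cbx7 lay nearest to Ccnd1 at 0.10 log2, and Ei24 nearest to Ccnd3 at 0.14 log2. Eed lay nearest to Cdkn2d at 0.14 log2, Ccng1 to Ccnd2 at 0.23 log2, and Max to Cdkn1a at 0.27 log2. The distances were larger for Myc, whose nearest gene was E2f5 at 0.34 log2, and for Cdkn1b, whose nearest was Mxd3 at 0.36 log2.

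**Figure D5:**
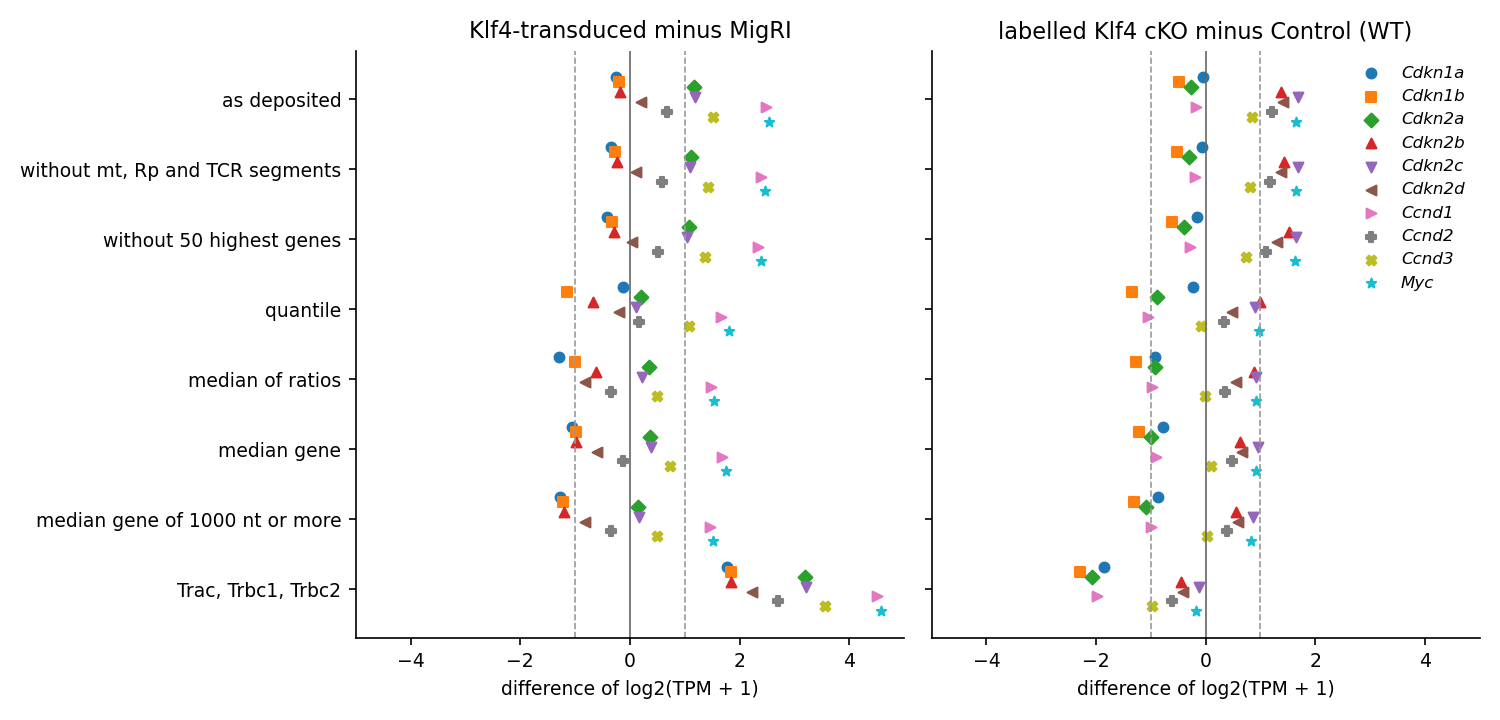
Difference of log2(TPM + 1) of each gene as deposited (top line) and under 7 other scalings, with dashed lines at -1 and 1 log2. At left Myc and Ccnd1 lie beyond 1 on every line. On the bottom line, relative to Trac, Trbc1 and Trbc2, all 10 genes lie above 1 at left and below 0 at right. Under that scaling 90.2% of measured genes were called higher at left and 53.8% were called lower at right.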

How the data were processed

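SMART-seq libraries of 4 samples, 1 per group, were analysed from tables of TPM deposited by the authors. Per the submitters' processing notes, Trimmomatic, HISAT2, StringTie and edgeR were used with mm10, with no versions. The tables hold 45777 entries each. Dates stood in place of 26 symbols of the control table, of which 22 were mapped back by name and 4 were left out of all libraries.

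Differences of log2(TPM + 1) were computed with Python 3.11.15 and pandas 2.3.3, with a pseudocount of 1, genes at a mean of at least 1 TPM and a call at 1 log2. The script was tested on simulated data. Coordinates came from GENCODE vM21 on mm10. Named list genes are among the 3 with the largest relative difference per list and comparison where the higher library reached 5 TPM, all genes of lists of 3 or fewer, and, among list genes at a mean of at least 5 TPM, the nearest genes. Cdkn1c, LTO1, Bysl, Krt19, Krt20, Cdh5, Kdr, S100a8, S100a9, Tpsb2, Cma1, Cpa3, Mcpt4 and Kit were chosen after their values were seen, as were the ratios within a library and their quantile normalization. The genes and lists were chosen with earlier results of these data known. Alternatives were pseudocounts of 0.1 and 5, no filter and a mean of 5 TPM, and 7 scalings: the median gene, median of ratios, quantile normalization, TPM after removal of mitochondrial genes, receptor segments and ribosomal proteins, TPM without the 50 highest genes, Trac, Trbc1 and Trbc2, and the median of genes with transcripts of 1000 nucleotides or more. Transcript lengths for 1 scaling were matched for 93.6% of measured genes. The scalings by the median gene, the median of ratios and the longer genes each shift values by a typical gene. A count over the 7 scalings is therefore not a count of separate checks. TPM are shares of a library, so abundant or short transcripts shift all other values.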

Additional observations from a re-analysis of the deposited data

How the results depend on the processing

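With no replicates to leave out, no difference could be checked against replicates. No paired analysis was possible because each group held 1 library. Only scaling and the pseudocount changed the counts of calls beyond 1.5 times, and neither the pseudocount of 0.1, the filters nor the removal of abundant gene classes did. For Klf4 over MigRI, 5 of 10 genes were called higher as deposited, against 43.7% of measured genes. The number was 3 with a pseudocount of 5 and with quantile normalization, against 28.4% and 21.2%. It was 2 relative to the median gene, under median of ratios and relative to genes of 1000 nucleotides or more, against 21.4%, 20.2% and 16.4%. Relative to Trac, Trbc1 and Trbc2 it was 10, against 90.2%. The number called lower went from 0 to 1 relative to the median gene, under median of ratios and under quantile normalization, against 23.6%, 24.5% and 21.5%. It was 3 relative to genes of 1000 nucleotides or more, against 29.4%. For the Klf4 cKO-labelled library over control, the 5 called higher went to 0 under each of the scalings just named, the receptor genes included. Of measured genes, 12.4% were called higher relative to the median gene, 12.3% under median of ratios and 13.5% under quantile normalization. The share was 10.1% relative to the longer genes and 0.716% relative to the receptor genes. The number called lower went from 0 to 2 relative to the median gene, under quantile normalization and relative to the longer genes, against 16.2%, 14.4% and 17.8%. It was 1 under median of ratios, against 15.7%, and 4 relative to Trac, Trbc1 and Trbc2, against 53.8%. Relative to these 3 genes, Cdkn1a, Cdkn1b and Cdkn2b turned to 1.78, 1.84 and 1.85 log2 with Klf4. In the Klf4 cKO-labelled library, Cdkn2b, Cdkn2c, Cdkn2d, Ccnd2 and Myc turned to -0.45, -0.13, -0.41, -0.61 and -0.17 log2. The causes were not tested. Of all calls among measured genes, 99.1% were in the higher direction with Klf4 relative to Trac, Trbc1 and Trbc2 and 1.31% in the other comparison, and 35.8% and 36.3% relative to the longer genes. Of 216 single values under the alternatives, 145 kept their direction and their side of the threshold. Both numbers include the values under no filter and under a mean of 5 TPM. Those equal the deposited differences by construction, since a filter does not change a single value. The depth is unknown, so the precision of the low genes Cdkn2a and Cdkn2b cannot be given.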

Other observations

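Cdkn3, a phosphatase that acts on cyclin-dependent kinases and was on the list of other inhibitors, was at 203 TPM in MigRI and 89.9 TPM in the Klf4 library, and at 194 TPM in the control library against 89.5 TPM in the Klf4 cKO-labelled library. Of the 4 measured genes of that list, 0 were higher and 3 lower with Klf4, and 1 was higher and 1 lower in the Klf4 cKO-labelled library, relative to the median gene. As deposited, 0 were higher and 2 lower, and 1 higher and 1 lower. Of all measured genes, 21.4% were called higher and 23.6% lower with Klf4 on the relative scale, and 12.4% and 16.2% in the other comparison. As deposited the shares were 43.7% and 10.3%, and 38.4% and 6.92%. The relative differences of Cdkn3 were -1.96 and -1.85 log2. Cdk2ap1, which binds Cdk2, was at 141 TPM in the MigRI library against 277 TPM with Klf4, and at 22.2 TPM in the control library against 104 TPM in the Klf4 cKO-labelled library, relative differences of 0.18 and 1.44 log2. Rbx1, a ring subunit of the ubiquitin ligases that degrade p27, was at 556 and 234 TPM, and at 1016 and 374 TPM, relative differences of -2.04 and -2.18 log2. Cbx8, a Polycomb subunit, was at 6.69 TPM in the MigRI library against 12.4 TPM with Klf4, and at 0.494 TPM in the control library against 9.36 TPM in the Klf4 cKO-labelled library, relative differences of 0.01 and 2.06 log2.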
